A study of Mus musculus with 8 samples.

Results

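The RNA of CD11b+ brain cells from 4 control mice was examined on its own, as a description of the genes that these cells express at baseline. The 4 control libraries were taken by their labels from the 8 libraries of the study, and all 20308 genes of the deposited table were considered. The mice were F1 offspring of a C57Bl/6 and CD1 cross and were 14 or 15 days old, the labels not saying which mouse had which age. CD1 is an outbred stock, so the F1 mice were not genetically identical. They served as controls for CSF1 over-expression (CSF1 OE), a model in which CSF1 is made under a tetracycline-regulated promoter in part of the GFAP+ cells, and the labels do not say which transgene, if any, a control carried. After perfusion, cells were enriched from the right brain hemisphere with magnetic beads against CD11b, with a Percoll step against myelin, and each mouse gave 1 library. The beads enrich cells but do not purify them, so RNA of other brain cells can be present. The mice are named here by the animal numbers in their labels, 1827, 1872, 1874 and 1934, and values given for each mouse follow that order.

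Microglia are the resident macrophages of the brain. They arise from yolk sac progenitors, depend on signals through the CSF1 receptor for survival, and in the young brain take part in synapse remodelling and in the removal of dying cells. In a healthy brain they are marked by the fractalkine receptor Cx3cr1, the CSF1 receptor Csf1r, the purinergic receptor P2ry12, the membrane protein Tmem119 and the integrin alpha chain Itgam, the last of which is CD11b itself. CD11b is also carried by border macrophages of the meninges and vessels, by monocytes and by neutrophils.

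Levels between genes were compared in TPM, transcript counts scaled to 1000000 per library, computed here by dividing each gene's expected count by its transcript length. Levels between mice were compared in CPM, read counts scaled to the same total by library size and by TMM factors, which allow for a few abundant genes taking up reads. Errors are SD over the 4 mice, and with a single group no comparison between groups was tested. The 4 libraries held 15475488, 14749919, 12908195 and 15103487 expected counts, with a count for 15557, 15528, 15462 and 15889 genes. A gene with a count of 0 could have had a level of up to 0.194 to 0.232 CPM, the value of 3 counts in these libraries, a limit that covers counting error only. The 4 libraries were not alike: across 9501 genes of at least 10 CPM on average, pairs among mice 1827, 1872 and 1874 differed by more than 2-fold in 80 to 159 genes, while pairs with mouse 1934 did so in 303 to 594 genes.

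Mouse 1934 stood apart in the markers of other cells as well, and this bears on most results below. Markers of 5 neural and vascular cell types ran highest there: 13 of 13 neuronal, 10 of 10 oligodendrocyte precursor, 13 of 14 oligodendrocyte, 13 of 17 astrocyte and 19 of 25 endothelial genes of at least 10 CPM had their top value in mouse 1934, against 28.1% of all genes. Counts for fibroblasts and meninges were 9 of 11, for red blood cells 5 of 6 and for mural cells 5 of 9. Border macrophages had 3 of 18 and neutrophils 0 of 5. Here and below, the limit of 10 CPM lies on the mean of the 4 mice. A gene high in mouse 1934 alone could pass it, which favours counts of genes highest there. The summed level of the neuronal genes was 287, 394, 287 and 991 CPM and that of the oligodendrocyte genes 4578, 4635, 6352 and 8223 CPM. Homeostatic microglia genes took the opposite order, with 29 of 30 lowest in mouse 1934 against 43.1% of all genes. The orders of the 5 neural and vascular types and of the homeostatic genes held in TPM as well (13 of 13, 10 of 10, 13 of 14, 14 of 17, 20 of 25 and 29 of 30), although the scales differ. Over all genes TPM lay 0.21 higher on the log2 scale in mouse 1934 relative to mouse 1827 than CPM did. Thus 49.1% of genes were highest in mouse 1934 in TPM and 22.5% lowest. None of the 27 neuronal genes in the table was without a count. The part of other cells in the values of mouse 1934 was not tested, and in a bulk sample fewer cells of a type and less RNA per cell cannot be told apart. Mouse 1874 differed in another way, with 14 of 19 heat shock and chaperone genes at their lowest, against 17.3% of all genes. Values without mouse 1934 are given where they matter.

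All 5 microglia markers were among the 78 highest of the 16511 genes with a count. Itgam encodes CD11b, by which the cells were selected, so its level is no test of their label. The share of microglia among the cells was not tested. Csf1r, the receptor for CSF1 and IL-34, ranked 10 at 5404 ± 945 TPM (SD, n = 4), with 5719, 6296, 5529 and 4074 TPM in the 4 mice. P2ry12, the ADP receptor through which microglia sense injury, ranked 12 at 5051 ± 858 TPM. Its values were 5606, 5529.7, 5288 and 3781 TPM. These markers lay close together in mice 1827, 1872 and 1874 and lowest in mouse 1934. Cx3cr1, the receptor for the neuronal chemokine fractalkine, ranked 29 with 2709.7, 2895, 2913 and 1796 TPM. Tmem119, a membrane protein of microglia, ranked 65 with 1938, 1680.0, 1533 and 915 TPM. Itgam ranked 78 with 1489, 1441, 1389 and 1142 TPM. Of the 5, Tmem119 varied most between mice, with a coefficient of variation (CV, SD divided by mean) of 0.335 in CPM, and Itgam least, with 0.169. Without mouse 1934 the highest mouse was 1.35-fold above the lowest for Tmem119 and 1.04-fold for Cx3cr1, in place of 2.45-fold and 1.82-fold.

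The 30 homeostatic microglia genes, a list of genes that resting microglia express above other macrophages, held 6.47% ± 1.14 of the summed TPM of all genes and counted 16 members among the 100 highest genes. The share was 7.2, 7.18, 6.71 and 4.8% in the 4 mice. In CPM the sum was 70047, 69101, 61975 and 40963 CPM, a range of 1.71-fold that came down to 1.13-fold without mouse 1934. Sparc, Csf1r, P2ry12 and C1qa were among its highest members. Selplg, a selectin ligand, stood at 2075 ± 547 TPM, the receptor Gpr34 at 1378 ± 293 TPM and Trem2, a receptor for lipids, at 906 ± 164 TPM. Sall1, a transcription factor that keeps microglial identity, stood at 421 ± 48.3 TPM (977, 1095, 972 and 736 CPM). The lowest of the list was Sall3 at 40.7 ± 11.0 TPM. Slc2a5, the fructose transporter of microglia, varied most and did not follow the order of the others, with 556, 191, 409 and 253 CPM.

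PU.1, a factor on which microglia depend, is encoded by Spi1, which stood at 238 ± 31.4 TPM. It is an ETS factor, and ETS factors bind around the letters GGAA. Promoters were searched for AGGAAGT on either strand, in windows from 250 bases before to 50 bases after each start in RefSeq (GRCm38.p6). The letters were found in 7 of 21 homeostatic genes with a window (P2ry12, Sall1, Fcrls, Gpr84, Hpgds, C1qb and C1qc), in 12 of 61 ribosomal protein genes, in 12 of 66 of the 100 highest genes and in 10.7% of all 27025 genes with a window. Other ETS factors bind the same letters, and a match describes the sequence and is not a binding site shown by these data. The upstream bases of 2 markers, 1 with and 1 without AGGAAGT in its window, are shown in the direction of transcription, with the match in capitals. The shorter letters GGAA also occur in the Cx3cr1 run and were not counted as a match. The P2ry12 run is the minus strand of chr3:59262986-59263085 and the Cx3cr1 run the minus strand of chr9:120068297-120068396, and both end at the base before the start.
P2ry12: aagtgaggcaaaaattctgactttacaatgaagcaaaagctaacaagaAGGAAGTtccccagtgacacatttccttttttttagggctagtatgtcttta
Cx3cr1: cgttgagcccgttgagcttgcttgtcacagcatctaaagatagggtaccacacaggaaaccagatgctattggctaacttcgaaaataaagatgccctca

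The 30 highest genes held 16.3% of the summed level, and the single highest, Cst3, held 1.81%. Cst3 encodes cystatin C, a secreted inhibitor of cysteine cathepsins. It lies on chromosome 2 (chr2:148871722-148875692, mm10) and stood at 18119 ± 6433 TPM (SD, n = 4), with 25427, 19541, 17666 and 9841 TPM in the 4 mice. The 4 values ran over a range of 2.99-fold in CPM, or 1.54-fold without mouse 1934. Cst3 was the highest gene of mice 1827, 1872 and 1874 and stood below Ttr and Ftl1 in mouse 1934. Sparc, a secreted glycoprotein that binds collagen and that microglia of the young brain express, followed at 10647 ± 2134 TPM (13334, 10853, 10251 and 8149 TPM). Ftl1, the ferritin light chain, which stores iron, stood at 9913 ± 1182 TPM. Ttr, the thyroid hormone carrier made by the choroid plexus, ranked 4 at 9014 ± 1924 TPM and is returned to below. Ctsd, the aspartic protease of the lysosome, stood at 8260.4 ± 1511 TPM (chr7:142375911-142388038). Tmsb4x, which binds actin monomers, reached 8170.0 ± 698 TPM. Eef1a1, which brings aminoacyl-tRNA to the ribosome, stood at 7173 ± 353 TPM.

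**Figure D1:**
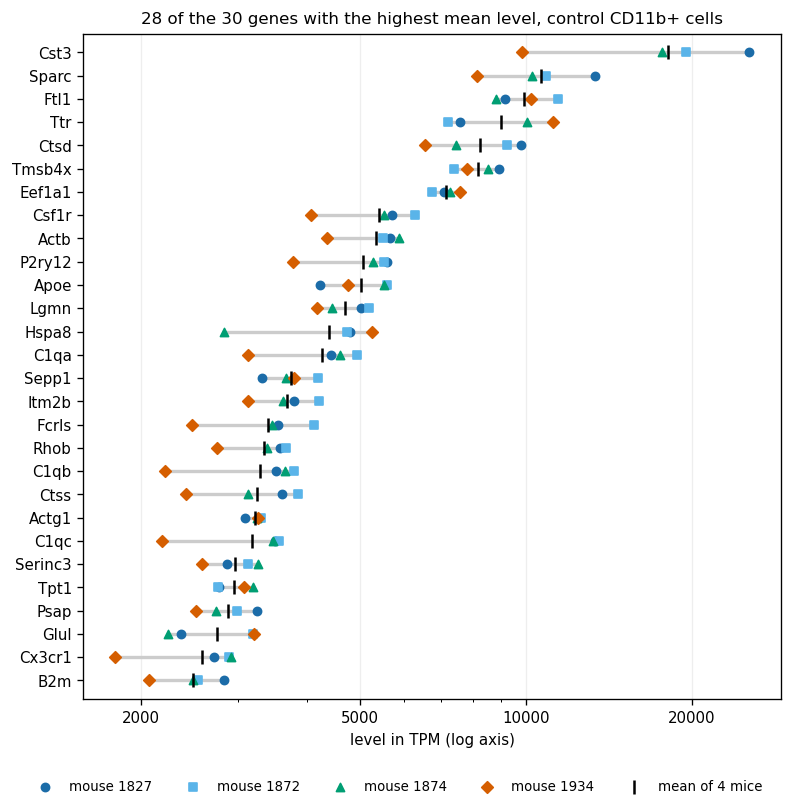
Level in TPM (log axis) of 28 of the 30 genes with the highest mean over the 4 control mice, 1 point per mouse, with a black tick for the mean and a grey bar from the lowest to the highest mouse. Cst3 is the highest gene in 3 of 4 mice by a wide margin. Mouse 1934 holds the lowest point in 18 of the 28 rows, against 22.5% of all genes of at least 10 CPM.

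Below these came genes of microglial identity and of lysosomes. The 3 chains of the complement protein C1q, which tags synapses for removal, are neighbours within 18.7 kb of chromosome 4 (chr4:136880129-136898803) and stood at 4273 ± 788 TPM for C1qa, 3295 ± 732 TPM for C1qb and 3179 ± 666 TPM for C1qc. C1qa stood at 4424, 4929, 4605 and 3134 TPM and C1qb at 3518, 3793, 3660.4 and 2211 TPM, and the order C1qa, C1qb, C1qc held in all 4 mice, each gene being lowest in mouse 1934. Fcrls, an Fc receptor-like gene of microglia, stood at 3400.3 ± 679 TPM. Apoe, the lipid carrier of the brain, stood at 5025 ± 659 TPM, lowest in mouse 1827 in TPM and in mouse 1934 in CPM. Lgmn, an asparaginyl endopeptidase, and Ctss, a cathepsin that works at neutral pH, stood at 4704 ± 473 TPM and 3254 ± 634 TPM. Psap, the precursor of the saposins, stood at 2874 ± 316 TPM and the MHC class I light chain B2m at 2484 ± 313 TPM. Rhob, a small GTPase of endosomes, stood at 3347 ± 418 TPM. Also among the 30 were the actins Actb and Actg1, the chaperone Hspa8, the selenium carrier Sepp1, Itm2b, Serinc3, Tpt1 and the glutamine synthetase Glul. Reads shared by Actb and Actg1, or by other close relatives, were divided between genes by the authors' counting, so levels of such genes are uncertain.

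The top of the ranking was stable as a set and less so as an order. Of the 30 highest genes by mean, 29, 28, 29 and 24 were also among the 30 highest of the single mice. Among the genes that mouse 1934 had in their place were Ptma, a small nuclear protein, Rps29, the ferritin heavy chain Fth1 and Hsp90aa1. Between neighbours in the ranking, 3 of 29 pairs kept their order in all 4 mice, so most neighbours did not differ beyond their spread. For 18 of the 30 the highest mouse was less than 1.5 times the lowest. The rank also rests on how length is counted. With no division by length Csf1r was the highest gene, and 23 of the 30 genes remained among the 30 highest.

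The RNA was spread over many genes. The 516 highest genes held 50% of the summed level (846 with no division by length), the 100 highest held 27.6% and the 1000 highest 60.3%. A CPM of at least 1 in all 4 mice was reached by 12621 genes, a TPM of at least 10 by 8553, at least 100 by 1548 and at least 1000 by 96. No count in any mouse was found for 3797 genes of the table. The 100 highest genes were short, with a median transcript length of 1362 bases against 2816 bases over the 12621 genes.

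The 82 genes of cytoplasmic ribosomal proteins held 8.11% ± 0.457 (SD, n = 4) of the summed level. In the 4 mice their share was 8.08, 7.61, 8.02 and 8.72%. None was among the 30 highest genes and 26 were among the 100 highest, so that the share came from many genes at like levels. The highest was Rps29 at 2351 ± 131 TPM, and Rps27 was listed at 0. Spread was small: the median CV of the group was 0.0571 and 0 of 81 genes of at least 10 CPM ran over 2-fold, against 9.84% of all genes. The mouse with the highest values depended on the scale: 56 of the 81 were highest in mouse 1827 in CPM, against 29.4% of all genes, and 66 in mouse 1934 in TPM, against 49.1%. The place of this group also depended on length. Its share was above that of the homeostatic microglia genes with the length used here, but below it with the union of exons (6.27% against 7.92%) and with no division by length (2.73% against 6.00%). Translation factors held 1.93% ± 0.0956, led by Eef1a1, whose 4 values of 5714, 5299.9, 5492 and 5291 CPM spanned 1.08-fold.

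Lysosomal genes, with the secreted inhibitor Cst3 counted among them, formed a further class. The 13 genes on the list of lysosomal proteases and their inhibitor Cst3 held 3.94% ± 0.909, with 4.9, 4.33, 3.76 and 2.77% in the 4 mice. Cst3 alone made up 46.0% of it. The 43 other hydrolases and membrane proteins, Psap among the highest, held 2.49% ± 0.297, and with the 16 subunits of the proton pump that acidifies the lysosome, the 72 genes came to 6.81% ± 1.19. In the first group 12 of 13 and in the second 34 of 42 genes of at least 10 CPM were lowest in mouse 1934, against 6 of 15 for the pump and 43.1% of all genes. In TPM the 3 counts were 10, 23 and 2. The sum of the proton pump genes differed little, with 2683, 2820.4, 2501 and 2529.8 CPM. Its leading subunit Atp6v0c, the proteolipid ring, stood at 1237 ± 58.5 TPM.

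The actin cytoskeleton, led by Tmsb4x, held 2.74% ± 0.163 over 32 genes, and iron handling 1.46% ± 0.181 over 12, of which the ferritin light chain Ftl1 made up 68.1%. Energy genes took less. The 74 nuclear-encoded genes of the respiratory chain held 1.02% ± 0.1, with Atp5b, the beta subunit of ATP synthase, highest at 574 ± 59.6 TPM. Glycolysis held 0.484% ± 0.0278, led by Gapdh at 1253 ± 80.3 TPM. The 34 proteasome genes held 0.363% ± 0.0281 and were even, with a median CV of 0.0739. Of 15 genes of the mitochondrial genome that were looked up, 0 were found in the deposited table, so all shares given here leave them out.

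**Figure D2:**
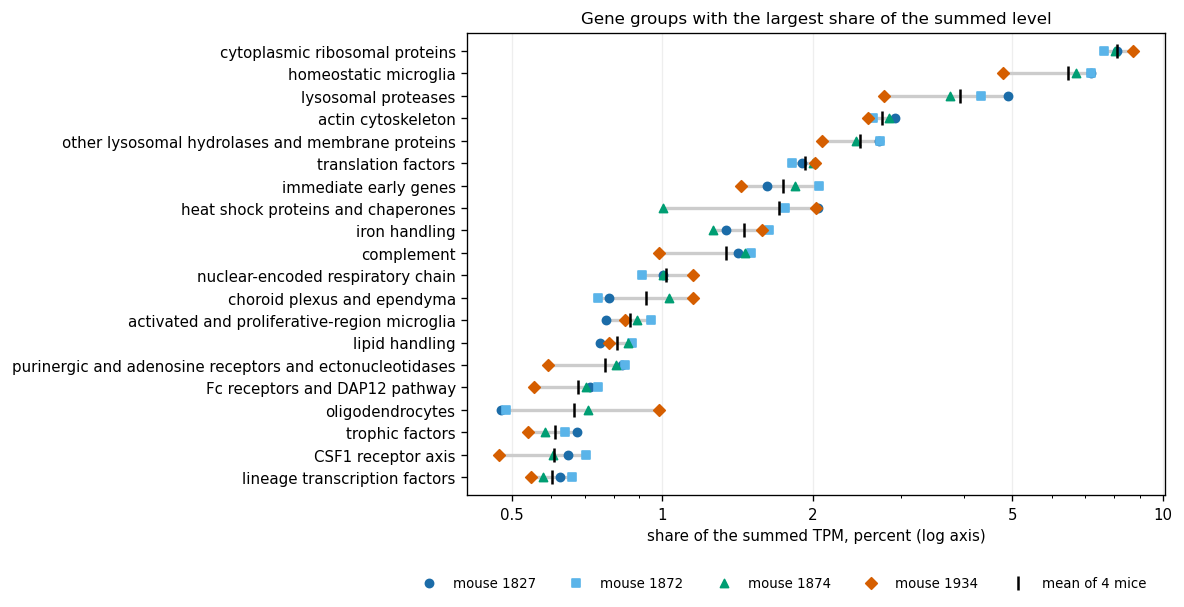
Share of the summed TPM, in percent (log axis), of each gene group whose mean share was above 0.6%, 1 point per mouse and a black tick for the mean, the grey bar running from the lowest to the highest mouse. Groups can share genes. With the length used here ribosomal proteins lead in every mouse, homeostatic, lysosomal, complement, purinergic and Fc receptor groups are lowest in mouse 1934, and heat shock genes are lowest in mouse 1874.

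Genes that cells switch on within minutes of a stimulus were abundant. The 25 immediate early genes held 1.74% ± 0.271 of the summed level, with 1.62, 2.06, 1.84 and 1.43% in the 4 mice, and 5 were among the 100 highest genes. Fos, a subunit of the AP-1 transcription factor, ranked 35 and stood at 1596, 3091, 2656 and 1521 TPM, so that mice 1872 and 1874 were above the other mice. Its partner Jun stood at 1916 ± 195 TPM, the stress factor Atf3 at 2176 ± 545 TPM, and Zfp36, which destabilises cytokine mRNA, at 1945 ± 461 TPM. Egr3, another of these factors, varied most, with 46.7, 23.9, 15.6 and 6.05 CPM.

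The 19 heat shock and chaperone genes held 1.71% ± 0.487 and separated mouse 1874 from the rest. Their summed level was 24184, 20132, 10868 and 20687 CPM, so that mouse 1874 stood 2.23-fold below the highest mouse. Of the 19 genes, 9 ran over 2-fold, against 9.84% of all genes. Hspa1b, an inducible heat shock protein of the HSP70 family, stood at 3844, 2000.2, 147 and 1901 CPM, and its near-identical neighbour Hspa1a at 2849, 1965, 158 and 1606 CPM. Hsp90aa1, the inducible form of HSP90, stood at 2447, 2253, 545 and 3008 CPM, and Hsph1 at 453, 331, 57.9 and 519 CPM. For each of these 4 genes mouse 1874 lay below the other 3, whose values did not come near it. Reads shared by Hspa1a and Hspa1b were divided between them. Hspa8, the constitutive HSP70, was lowest in the same mouse, with 4744, 4571, 2635 and 4500.0 CPM. Hmox1, the enzyme that breaks down haem, was likewise lowest in mouse 1874, at 568, 650.0, 227 and 737 CPM.

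Cell cycle genes were low and uneven. The 32 genes of DNA replication and mitosis held 0.161% ± 0.0483, and 19 of them ran over 2-fold between mice, against 9.84% of all genes. Mouse 1872 was lowest for 27 of the 32, in CPM and in TPM, against 17.9% and 23.9% of all genes. The highest was mouse 1827 for 24 in CPM, against 29.4% of all genes, but mouse 1934 for 21 in TPM, against 49.1%. Mki67, which marks cycling cells, stood at 269.7, 113, 155 and 260.5 CPM and the topoisomerase Top2a at 177, 77.6, 99.9 and 158 CPM. Both genes were higher in mice 1827 and 1934 than in mice 1872 and 1874. Stmn1, which regulates microtubules and is also a neuronal gene, was the highest of the list at 393 ± 195 TPM and was highest in mouse 1934. Sterol and fatty acid synthesis held 0.174% ± 0.0422, and 18 of its 23 genes were highest in mouse 1934, against 28.1% of all genes. Lss, which closes the sterol ring, stood at 27.8, 26.3, 28.5 and 52.7 CPM, the first 3 mice lying together.

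Receptors of the innate immune system ran over a wide range of levels. Among 19 genes of Fc receptors and the DAP12 pathway, which held 0.679% ± 0.0855, Tyrobp, the adaptor DAP12 itself, was highest at 1750.0 ± 224 TPM, and Fcgr3, a low-affinity receptor for IgG, stood at 934 TPM on average. All 12 of at least 10 CPM were lowest in mouse 1934, against 43.1% of all genes. In TPM 11 of the 12 were lowest there, against 22.5%. Of 23 Toll-like receptors and adaptors 22 reached 1 TPM in all 4 mice, against 12432 of all 20214 genes with a length. Unc93b1, which carries the endosomal receptors, and Cd180 and Ly86, a receptor pair, led at 997 TPM, 992 TPM and 945 TPM. Tlr7, which senses single-stranded RNA, stood at 269 TPM, Tlr2 at 204 TPM and Tlr4, the endotoxin receptor, at 74.8 TPM. Tlr11, the lowest of the list, stood at 0.0647 TPM. The integrins were led by Itgam and by Itgb5 at 1059.7 TPM, and Itgb2, the beta chain that pairs with Itgam, stood at 199.6 TPM. Sirpa, which reads the signal CD47, led the 20 inhibitory receptors at 1552 ± 277 TPM. All 20 reached 1 TPM in all 4 mice, against the same 12432 of 20214 genes. The purinergic genes were dominated by P2ry12, which made up 65.8% of them, with P2ry13 at 1226 TPM and P2rx7 at 460.3 TPM.

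Chemokine and cytokine genes were uneven from gene to gene. Ccl4, a chemokine that draws leukocytes, ranked 92 with 1347, 1665, 828 and 1127 TPM, and Ccl3 stood at 666 ± 129 TPM. At the other end Cxcl9, which interferon-gamma induces, stood at 0.152 TPM and Cxcl5 at 0.0255 TPM. Among receptors, Cx3cr1 made up 75.7% of the list. Ccr6, the receptor for Ccl20, ran over a wide range, with 83.9, 54.7, 56.5 and 1.83 CPM, so that mouse 1934 was 45.8-fold below the highest mouse while the other 3 lay within 1.53-fold. Tgfbr1, through which TGF-beta maintains microglia, led the cytokine genes at 1418 ± 246 TPM. Il1a stood at 382 ± 137 TPM, Tnf at 173 ± 36.3 TPM, Il1b at 107 ± 29.7 TPM and Ifng was listed at 0. Of the CSF1 receptor axis, Csf1r made up 89.1%. Its ligand Csf1 stood at 367, 315, 142 and 328 CPM, lowest in mouse 1874, and its other ligand Il34, which neurons make, at 2.37, 2.88, 4.09 and 6.05 CPM.

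Genes that mark polarised or activated macrophages stood far apart in level. Of 12 M1 markers the highest was Fcgr1, the high-affinity IgG receptor, at 189 ± 30.1 TPM, while Nos2, the inducible nitric oxide synthase, stood at 3.16 ± 1.43 TPM and Il12b at 0.412 TPM. Of 19 M2 markers in the table the highest was Mrc1, the mannose receptor, at 495 ± 107 TPM, with 813, 1231, 1242 and 1194 CPM in the 4 mice, mouse 1827 being lowest. Arg1, the arginase that defines M2 cells in the mouse, stood at 1.42 ± 0.884 TPM, and Retnla and Ccl24 at 87.4 ± 28.0 TPM and 103 ± 15.2 TPM. Mrc1, Retnla and Ccl24 are also genes of border macrophages. Apoe and Ctsb led the genes of activated and proliferative-region microglia, and Spp1, Igf1 and Itgax of that list stood at 92.4 ± 19.6 TPM, 76.4 ± 14.7 TPM and 9.34 ± 1.69 TPM. Tgm2, a transglutaminase, varied most of the M2 markers, with 252, 154, 107 and 89.9 CPM.

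Antigen presentation differed by class. MHC class I genes held 0.346% ± 0.0362, of which B2m made up 71.7%, with H2-D1 at 326 ± 6.95 TPM and H2-K1 at 193 ± 23.9 TPM. MHC class II genes held 0.0407% ± 0.012. Their chaperone Cd74 stood at 43.0, 123, 91.7 and 77.9 CPM and the beta chain H2-Eb1 at 6.3, 25.7, 20.9 and 7.64 CPM, mice 1872 and 1874 being higher than the other mice for both, and the master regulator Ciita stood at 0.375 ± 0.195 TPM. Genes of the MHC are close relatives, so their reads may be divided imperfectly. The 35 interferon-regulated genes in the table held 0.0653% ± 0.00338, and their highest member, Ifitm2, ranked 1846. Of the 24 trophic factors, Psap and the growth factor progranulin, Grn, led at 2874 TPM and 1657 TPM, whereas the neurotrophin Bdnf stood at 0.365 TPM. Among 38 transcription factors of the lineage, Klf2 was highest at 615 ± 189 TPM, and Sall1, Mef2a, Ikzf1 and Irf8 followed at 421 TPM, 355 TPM, 336 TPM and 335 TPM. Of genes for oxidants, Gpx1, a glutathione peroxidase, led at 521 TPM, and Ncf1 and Cyba, subunits of the NADPH oxidase, stood at 421 TPM and 477 TPM.

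Markers of cells other than microglia were present in all 4 libraries. Each of the 234 genes on 15 lists counted once, they held 3.05% ± 0.756 of the summed level, against 12.3% ± 1.58 for 418 genes on the microglia and macrophage lists. In the 4 mice their share was 2.50, 2.46, 3.17 and 4.07%. Ttr alone made up 97.3% of the choroid plexus list, and without it the share was 2.15% ± 0.572. Ttr stood at 4048, 3748, 5015 and 5164 CPM, while other choroid plexus genes were far lower, Folr1 at 71.9 TPM and Kl at 17.3 TPM.

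Macrophages of the brain borders share CD11b with microglia, and their markers were found in each mouse. All 18 genes reached 1 TPM in all 4 mice, against 12432 of all 20214 genes with a length. Their sum was 3673, 5056, 4899.6 and 4458 CPM. In 14 of 18 the lowest value was that of mouse 1827, against 21.8% of all genes. Lyve1, a hyaluronan receptor, stood at 167, 251, 258 and 290.0 CPM, the haemoglobin scavenger receptor Cd163 at 106, 239, 344 and 291 CPM and the chemokine Pf4 at 54.4, 73.8, 84.1 and 76.0 CPM. Markers of blood cells differed in level by list and by gene. The monocyte genes summed to 2040, 1947, 1498 and 1784 CPM. The highest of that list, Nr4a1, is an immediate early gene too and made up 63.5% of its TPM. It stood at 1379, 1268, 509 and 715 CPM. Ccr2 and Ly6c2 of the same list stood at 9.56, 16.9, 12.4 and 6.25 CPM and 1.41, 2.44, 1.86 and 2.23 CPM. Neutrophil genes, led by the calgranulin S100a9 at 17.3, 42.0, 27.9 and 19.4 CPM, summed to 69.9, 168, 124 and 96.0 CPM, and all 5 of at least 10 CPM were highest in mouse 1872 and lowest in mouse 1827, against 22.9% and 21.8% of all genes. T and NK cell genes summed to 71.4, 68.3, 72.8 and 40.9 CPM, Il7r making up 57.4% of their TPM, while Cd3g, Cd8b1 and Ncr1 had no count and Cd3e had a value in 1 mouse only. Of B cell genes Pax5 and Vpreb3 had no count. Haemoglobin RNA split the mice differently: Hbb-bs stood at 299.5, 105, 128 and 387 CPM and Hba-a2 at 142, 42.9, 58.0 and 193 CPM, mice 1827 and 1934 being higher than mice 1872 and 1874 for both. Reads shared by Hba-a1 and Hba-a2 were divided between them.

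Oligodendrocyte genes were the highest of the neural lists in TPM. Mbp, the myelin basic protein, stood at 486, 523, 744 and 1113 CPM and Mog, a protein of the outer myelin surface, at 75.4, 66.7, 121 and 156 CPM. Mice 1827 and 1872 lay together for these genes, with mouse 1874 above them and mouse 1934 highest. That order was shared by several lists: mice 1874 and 1934 were both above the other 2 mice in 13 of 14 oligodendrocyte, 10 of 10 precursor, 17 of 17 astrocyte, 9 of 9 mural and 22 of 25 endothelial genes, against 18.4% of all 9501 genes. Slc1a2, the main glutamate transporter of astrocytes, stood at 105, 151, 211 and 274 CPM and Gfap at 13.2, 11.5, 17.4 and 27.3 CPM. Cldn5, the tight junction protein of brain endothelium, stood at 133, 156, 214 and 224 CPM and Rgs5, a gene of pericytes, at 83.9, 74.8, 167 and 177 CPM. Pdgfra, the receptor that marks oligodendrocyte precursors, stood at 11.2, 18.9, 26.9 and 39.9 CPM. Neuronal genes set mouse 1934 apart but not mouse 1874. Snap25, a synaptic protein, stood at 15.7, 23.5, 8.26 and 53.0 CPM, Rbfox3, the antigen NeuN, at 3.72, 4.78, 3.71 and 14.5 CPM and Tubb3, a neuronal tubulin, at 20.6, 35.7, 31.9 and 90.8 CPM. Over the 15 lists the median range between the highest and the lowest mouse was 1.89-fold, or 1.47-fold without mouse 1934 and 1.64-fold without mouse 1827.

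**Figure D3:**
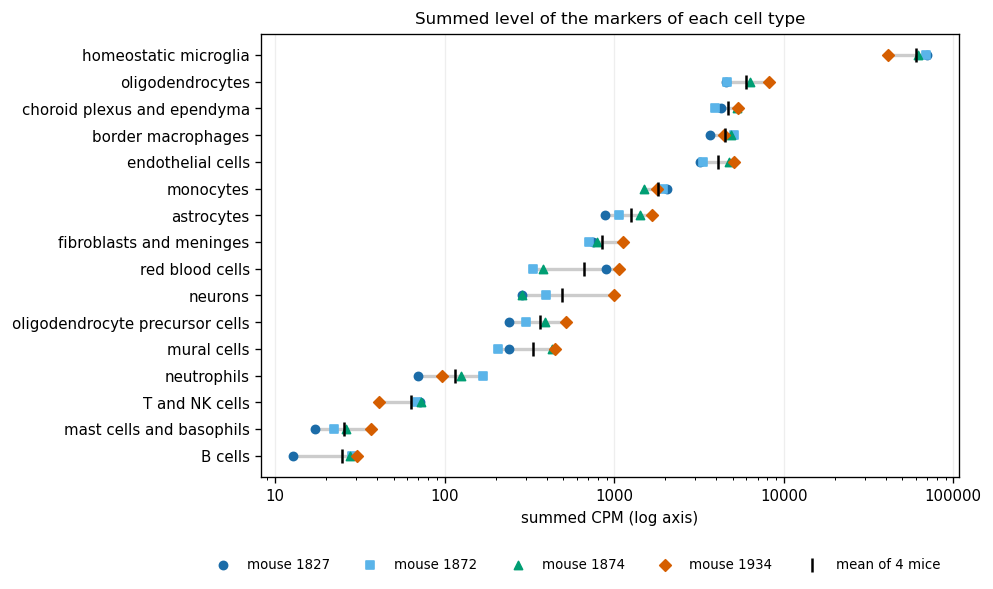
Summed CPM (log axis) of the marker genes of homeostatic microglia and of 15 other cell types, 1 point per mouse and a black tick for the mean. Points are to be compared along a row, since lists differ in the number and length of their genes. Mouse 1934 is lowest for microglia. It is highest for each other cell type except border macrophages, monocytes, neutrophils, and T and NK cells.

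The 4 Y-linked genes with counts, such as Eif2s3y at 85.3, 78.1, 87.8 and 81.9 CPM and Ddx3y at 123, 128, 141 and 121 CPM, were at like levels in all 4 mice, with a summed range of 1.1-fold, and Sry, Usp9y and Zfy1 had no count. The labels give no sex.

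Between mice, the spread of a gene depended on its level and on mouse 1934. The median CV was 0.280 for 3711 genes of 1 to 10 CPM, 0.116 for 7277 genes of 10 to 100 CPM, 0.106 for 2140 genes of 100 to 1000 CPM and 0.188 for 84 genes above that. Counting error alone would give medians of 0.127, 0.0459, 0.0200 and 0.00598 in these classes. The median was thus largest among the lowest genes, and that above 1000 CPM was larger than those of the 2 classes between. Without mouse 1934 the 4 medians were 0.192, 0.0858, 0.0679 and 0.0985. The common biological coefficient of variation estimated by edgeR, the spread left after counting error, was 0.218, and 0.145 without mouse 1934, while DESeq2 gave a median of 0.120 over genes. Of the 9501 genes of at least 10 CPM, 935 (9.84%) ran over 2-fold between the lowest and the highest mouse. Pearson correlations of log2 CPM across genes, which are not independent, ran from 0.946 to 0.985 over the 6 pairs of mice, and the 3 lowest were those with mouse 1934. On a principal component analysis of log2 CPM the first component held 64.0% of the variance, with mouse 1934 at 31.3 and the others at -16.3, -11.7 and -3.32.

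**Figure D4:**
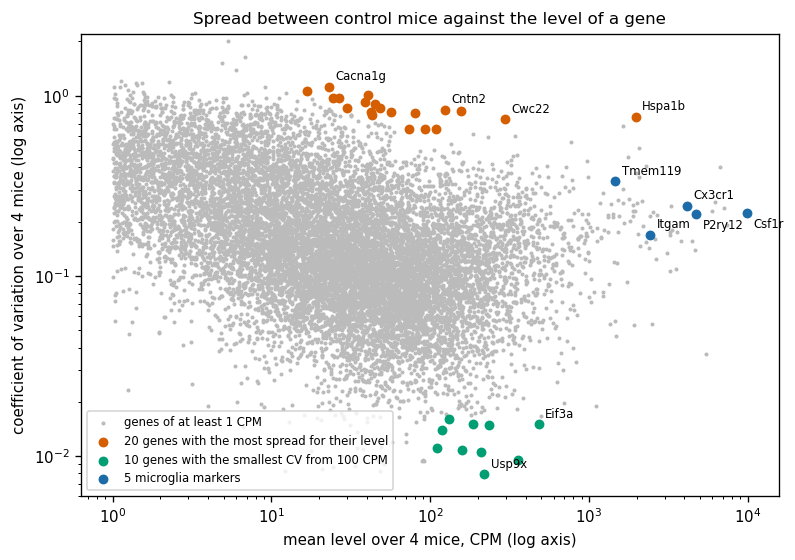
Coefficient of variation over the 4 control mice against the mean level in CPM, both on log axes, 1 point per gene of at least 1 CPM, with the 5 markers, the 20 genes with the most spread for their level and the 10 genes with the smallest CV from 100 CPM in colour. Spread is widest among the lowest genes, and the 5 markers lie between 0.169 and 0.335.

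Of the 20 genes with the largest spread for their level, 14 were highest in mouse 1934, against 28.1% of all genes. The measure was the squared CV divided by what edgeR's trend and counting error give at that level. It was taken over these same mice, so the ranking favours a mouse that stands apart. Mab21l1 lay at 4.88 to 9.63 CPM in the other mice and passed the limit of 10 CPM only through mouse 1934. Cntn2, an axonal adhesion molecule, led with 44.8, 81.9, 93.6 and 276 CPM. Reln, the secreted protein reelin of cerebellar granule cells and Cajal-Retzius cells, stood at 16.9, 22.01, 24.1 and 92.0 CPM, and Neurod1 and Pax6, transcription factors of granule neurons, at 16.3, 32.0, 26.4 and 104 CPM and 9.21, 16.8, 15.4 and 65.6 CPM. Nfib, Dcx, Zic1, Map1b, Mab21l1, Sept3, Crmp1 and Ppp2r2c had the same order, with mouse 1827 lowest and mouse 1934 highest, and ranges from 3.65-fold for Map1b to 8.89-fold for Mab21l1. In all, 95 of the 9501 genes were at least 2-fold above the other 3 mice in mouse 1934 while those lay within 1.5-fold of each other, and 5, among them Il7r and Junb, were as far below. The same count was at most 16 for any other mouse and direction, the 16 being lower in mouse 1874, among them Hsp90aa1, Hmox1, Myc and Dusp4. Of the 95, 5 were on a list of another cell type and 0 on a microglia list. These lists hold 234 and 418 genes. Their share among the 9501 genes was not counted, so neither number shows an excess or a lack.

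Other variable genes set apart a different mouse. Itgae, the integrin chain CD103, stood at 100.4, 23.8, 29.0 and 8.99 CPM, highest in mouse 1827. Csmd3, a large membrane protein, and Cacna1g, a T-type calcium channel, were also highest there, at 175, 58.1, 56.0 and 31.7 CPM and 61.3, 11.5, 8.88 and 10.1 CPM. Mouse 1872 stood apart for Chst12, a chondroitin sulfotransferase, with 12.3, 60.4, 13.7 and 11.7 CPM. Cwc22, a splicing factor, stood at 41.3, 468, 187 and 489.6 CPM, lowest in mouse 1827 and at like levels in mice 1872 and 1934. Without mouse 1934 Cacna1g, Chst12, Cwc22, Hspa1b and Itgae had the largest CVs among genes of at least 10 CPM, from 1.09 to 0.838, a ranking made after seeing the data.

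**Figure D5:**
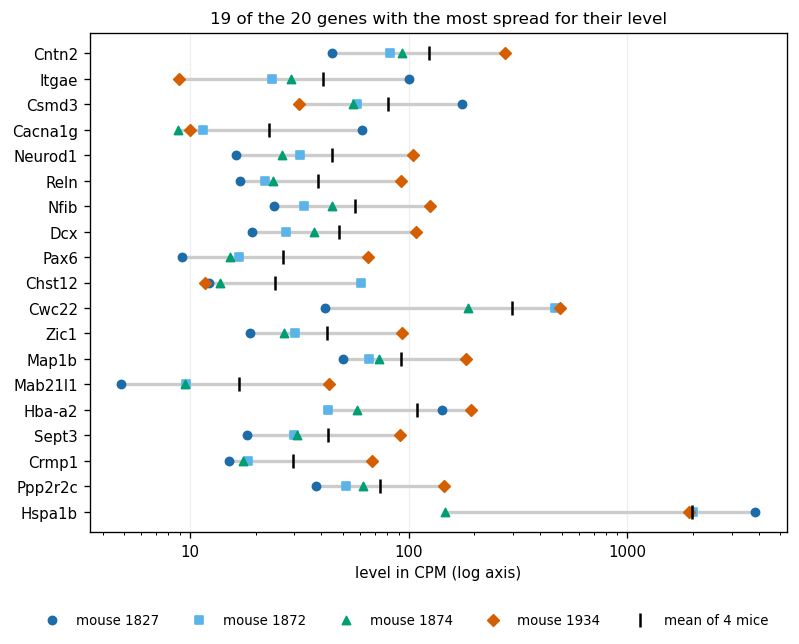
Level in CPM (log axis) of 19 of the 20 genes with the most spread for their level, from the largest spread downward, 1 point per mouse, a black tick for the mean and a grey bar from the lowest to the highest mouse. Mouse 1934 is highest in 14 rows, against 28.1% of all genes of at least 10 CPM, the rows being chosen by spread over these mice. Mouse 1827 is highest in Itgae, Csmd3 and Cacna1g, and mouse 1872 in Chst12, while mouse 1874 is far below the others in Hspa1b.

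The most even genes of at least 100 CPM, on the TMM scale, had CVs far below the medians above. Usp9x, a deubiquitinase, stood at 221, 217, 218 and 221 CPM with a CV of 0.0079, and Serinc1, which helps build serine lipids into membranes, at 359.8, 357, 352 and 356 CPM with a CV of 0.00952. The chromatin protein Baz1b, the nuclear import factor Kpna4, the tumour suppressor Nf2, Cdc42se2, Cnbp, the initiation factor Eif3a, the ribosomal protein Rps21 and the Golgi protein Golgb1 made up the other 8, with CVs up to 0.016. Gapdh and Actb, which are often used as references, had CVs of 0.106 and 0.174, and Actb was 1.51-fold higher in its highest than in its lowest mouse, or 1.06-fold without mouse 1934.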

How the data were processed

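RNA from CD11b-enriched cells was extracted with TRIzol, made into libraries with the TruSeq RNA Library Prep Kit v2 and read on 1 HiSeq 2500 lane. Per the submitters' processing notes, reads were handled with bcl2fastq 1.8.4, Bowtie 1.0.0 and RSEM 1.2.7 on mm10. The gene annotation is not given in the sources used here. The authors deposited RSEM expected counts per gene for each library and a matrix of normalized values, a signal equal to those counts divided by a size factor per library. The libraries of CSF1 OE mice were not used here. RSEM divides reads between genes that share sequence, so paralogs are uncertain. The table holds almost only protein-coding genes (99.7% of the 20214 genes matched to GENCODE M21).

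Groups followed the labels. TPM was computed from expected counts with the median length of a gene's full-length transcripts in GENCODE M21. Transcripts annotated as truncated were left out after they were seen to give false lengths. Symbols matched directly for 19325 genes and through synonyms for 889, and 94 were unmatched. CPM used TMM factors among the 4 controls (0.954, 0.964, 1.00 and 1.08, edgeR 4.0.16 in R 4.3.3), with counts not rounded. The design has 1 group, so no groups were tested against each other and each value is a description over 4 mice, 1 library each. Named were the 30 highest genes by TPM, the 5 markers, the highest and the most variable member of each of 55 lists, the 20 genes of at least 10 CPM with the most spread for their level, the 10 genes of at least 100 CPM with the smallest CV, and other list members where they describe a list. The members, lists and rule were chosen with earlier results of these data known, and counts of which mouse was highest or lowest within a list were added after the values were seen. A few genes that the rule names are not reported here. Scripts were tested on simulated data.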

Additional observations from a re-analysis of the deposited data

Results flagged for a closer look

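Each named gene and each list sum was examined for a mouse that stood apart from the other 3, by Dixon's ratio of the gap to the range, which chance passes in about 1 of 20 groups. It was passed by 26 of 191 named genes and sums (13.6%) and by 613 of 9501 genes of at least 10 CPM (6.45%). The first share is not comparable with chance or with the second, since many named genes were chosen for their spread over the same mice. Among the 9501 genes, mouse 1934 was set apart upward in 207 and downward in 192.

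Several values were set apart downward in mouse 1934. Cx3cr1 stood at 2619 CPM there, C1qb at 935 CPM, C1qc at 1019 CPM, Tgfbr1 at 971 CPM and Il7r at 19.99 CPM, and Actb, the cytoplasmic actin, stood at 2673 CPM. Of list sums, complement stood at 6816 CPM in this mouse, Toll-like receptors and adaptors at 2622 CPM, chemokine receptors at 3523 CPM, Siglecs and inhibitory receptors at 3145 CPM and T and NK cell genes at 40.9 CPM. In TPM, Cx3cr1 makes up 75.7% of the chemokine receptors and Il7r 57.4% of the T and NK cell genes. The neuronal sum was set apart upward in the same mouse, at 991 CPM, as were the neuronal genes Reln at 92.0 CPM, Pax6 at 65.6 CPM, Zic1 at 93.3 CPM, Mab21l1 at 43.4 CPM and Crmp1 at 68.0 CPM. Lss, of sterol synthesis, was also higher there, at 52.7 CPM.

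Other mice were set apart for fewer genes. In mouse 1827 Rps10 stood at 278 CPM, Psma1 at 99.3 CPM, Cxcl10, an interferon-induced chemokine, at 29.5 CPM and Cacna1g at 61.3 CPM, each above the other mice, whereas Mrc1 at 813 CPM and the B cell sum at 12.7 CPM were below them. Chst12 was set apart in mouse 1872, at 60.4 CPM. Hspa8 was set apart in mouse 1874, at 2635 CPM. The part of other cells in these values was not tested.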

How the results depend on the processing

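No paired analysis was possible because the libraries form a single group, with nothing to pair them with. The shares of gene groups depended on gene length. For ribosomal proteins, 8.11% became 7.24% with the longest transcript, 6.27% with the union of exons, 10.004% with 200 bases taken off each length, 2.73% with no length and 6.21% when truncated transcripts entered the median, an alternative chosen after seeing the data. Homeostatic microglia genes held 7.92% with the union of exons. Lysosomal proteases, with Cst3 counted among them here and below, held 4.86% with the union and 2.67% with no length. Actin cytoskeleton genes held 2.52%, 1.87% and 3.12% with the union, no length and truncated transcripts. With no length 846 genes, in place of 516, made up 50% of the level. Of the 30 highest genes 29 stayed with the longest transcript, 27 with the union, 26 with 200 bases taken off, 23 with no length and 21 with truncated transcripts. The order of the mice within lists in TPM, given beside the counts in CPM, was added after seeing the data. The number of detected genes ran from 12432 to 16511 under other thresholds. DESeq2 gave 0.120 for the biological CV, and the median CV over genes was 0.142 from a mean of 1 CPM in place of 0.114 from 10 CPM.

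Leaving out each mouse in turn, ribosomal shares ran from 7.91% to 8.28%, homeostatic from 6.23% to 7.03%, lysosomal proteases from 3.62% to 4.33% and actin from 2.68% to 2.80%, the biological CV from 0.145 without mouse 1934 to 0.243, the median CV from 0.0814 without mouse 1934 to 0.120, and the median range of other cell types from 1.47-fold without mouse 1934 to 1.89-fold. The CV of 69 of 139 named genes moved by over 25% of its value without mouse 1934. The number of detected genes ran from 12656 to 12747.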
